A study of Mus musculus with 6 samples.

Results

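The comparison set day 7 cells, grown attached, against day 3 cells, taken from suspension, in differentiating mouse embryonic stem cells. It used 2 libraries per day, and its members were the RNA G-quadruplex (rG4) sites with 20 or more reads in at least 2 of the 4 libraries. That rule kept 4455 of 5538 listed sites, in 2160 gene entries, and left out 1083. All libraries came from a clonal TsixTST/+ line of the cross 129S1/CastEiJ x 129S1, labelled WT, and the treatment label reads None. The Tsix allele of this line was therefore shared by both days. Cells freed of feeders were differentiated as embryoid bodies without LIF, floated until day 3, and were then plated on gelatin. Cells of both days were exposed to dimethyl sulfate (DMS), and polyadenylated RNA bound to chromatin was purified. The labels do not say that the 2 replicates of a day were separate cultures, so every p-value below measures the spread between libraries of 1 clone, which may be technical.

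An rG4 is a stack of guanine tetrads that a G-rich RNA can form, held together by a potassium ion in its centre. Reverse transcriptase stalls at the 3′ edge of a folded rG4 when K+ is present and passes more freely when Li+ takes its place. DMS methylates guanines that are not held in a folded rG4. A methylated guanine can no longer join a tetrad when the purified RNA is refolded. Stops that remain in K+ thus report on sites folded in the cell. The 3 readings below follow from this for each site: the number of reads that cover it (K+ and Li+ summed), which follows the amount of RNA, the number of reads that stop there in K+, and the stop share, which is stops as a percentage of reads. Embryoid bodies leave pluripotency for the germ layers, and plating lets them spread out on a substrate, so adhesion, cytoskeletal and lineage genes are of interest between these days.

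The sites below are those on which the following results turn. They are the keratin, Xist and H19 sites that gained reads, the Ccn1 and Jun sites that gained K+ stops, the pluripotency sites that lost reads, and sites whose stop shares moved most. Each is written 5′ to 3′ as DNA letters from the deposited site table, on the strand of the RNA, up to the last base at which stops were counted and at most 30 bases long. Capitals mark runs of 2 or more G. Positions are on GRCm38.p6.
Krt18, coding sequence, chr15:102028443-102028472, plus strand: tGGctctgtGGGGtccgcaGGcctGGcGGG
Krt8, coding sequence, chr15:102004050-102004079, minus strand: ccGGcgtGGGtctGGGcGGctttGGcGGGG
Krt19, coding sequence, chr11:100145773-100145802, minus strand: GGGGGttcagtacgcattGGGtcaGGGGGt
Xist, noncoding, chrX:103461851-103461877, minus strand: GGGaagtgctGGatGGGGGGGGGGGGt
H19, noncoding, chr7:142576936-142576965, minus strand: ttGGGtgcaGGtagagcgagtagctGGGGt
Dbn1, 3′ UTR, chr13:55473864-55473886, minus strand: GGGacctGGtGGGGGtcGGGGGt
Ccn1, 3′ UTR, chr3:145647591-145647612, minus strand: GGagacgtGGGtGGGcGGaGGa
Jun, 3′ UTR, chr4:95049836-95049858, minus strand: GGGaGGGctGGGaaGGGGGGGGa
Mybl2, 5′ UTR, chr2:163054794-163054821, plus strand: GGGcgtaaGGGtgcGGcGGGGtccGGGc
Pou5f1, 5′ UTR or coding by isoform, chr17:35506123-35506152, plus strand: cttcgccttctcacccccaccaGGtGGGGG
Sox2 (overlapping Sox2ot), 3′ UTR, chr3:34651636-34651651, plus strand: GGGcGGcGGGGaGGGc
Kpnb1, 3′ UTR, chr11:97161851-97161864, minus strand: GGGGGGaGGGGGGa
Pfdn2, coding sequence, chr1:171345741-171345770, plus strand: gagcGGcGGGagcGGcgcGGGGaaGGGGGc
Pnck, 5′ UTR, chrX:73659284-73659313, minus strand: GGtGGGcaaGGGagctgctcgttgccaaGG
The sites differ in form. Mybl2 has 4 runs of 3 or more G in the stretch shown and Sox2 has 3, whereas Krt18 has 2 and fills the rest with 2-base runs. The tables class the Pou5f1 and H19 sites as potential quadruplexes of high G content, outside the regular motif classes.

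The libraries differed in depth. Outside ribosomal and mitochondrial RNA the day 3 libraries held 511396 and 281975 reads over listed sites, and the day 7 libraries 2367914 and 783430. A site's reads were never listed between 1 and 5 in either cation, so a listed 0 stands for up to 5 reads, or up to 10 for both cations, and a fold against a listed 0 is given as "at least", computed with the 0 at that floor. Reads were listed at 0 in both cations at 943 and 1913 of the 5538 sites on day 3 and at 24 and 374 on day 7. The K+ library of day 3 replicate 1 stood apart: its pooled K+ stop share was 9.62%, against 4.37 to 5.84% in the other 3, and it held 0.206 K+ reads per Li+ read, against 0.541 to 1.98. One Cmc4/Mtcp1 site supplied 12.9% of its K+ stops outside ribosomal and mitochondrial RNA. Reads are given below as CPM, counts scaled to a common library size outside ribosomal and mitochondrial RNA with trimmed-mean factors.

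RNA amount changed at 400 sites between the days. By limma-voom with Benjamini-Hochberg adjustment, 328 sites in 222 genes rose (7.36% of those tested) and 72 sites in 54 genes fell (1.62%), and no gene had sites called in both directions. Called rises included keratin, actin cytoskeleton, neural, immediate early and imprinted genes, and called falls included pluripotency factors. Both day 7 libraries lay on one side of both day 3 libraries at all 400 sites. The rises fell into unequal kinds, however. At 262 of the 328, both day 3 libraries were listed at 0. With the listing floor in place of those zeros, day 7 was more than 2-fold higher at 102 of these 262 and not higher at 25. At 49 sites reads were listed in both day 3 libraries. When the fit itself was given each listed 0 at the floor, 175 sites rose and 118 fell, and 105 of the 328 rises, in 60 genes, were among them. That fit gives replicates listed at 0 the same reads, so their spread is set and not measured, here and in the lists below. When all libraries were thinned to equal depth, which left 2175 sites to test, 27 rose and 5 fell. No site passed under limma-trend in place of voom (lowest adjusted p = 0.0817, 698 sites at an unadjusted p under 0.05), nor with voom when day 3 replicate 2 was left out (lowest adjusted p = 0.0519, 557 sites at an unadjusted p under 0.05), so each amount call below rests on that library and on the weighting. Both counts of 0 apply to every list below as well.

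**Figure D1:**
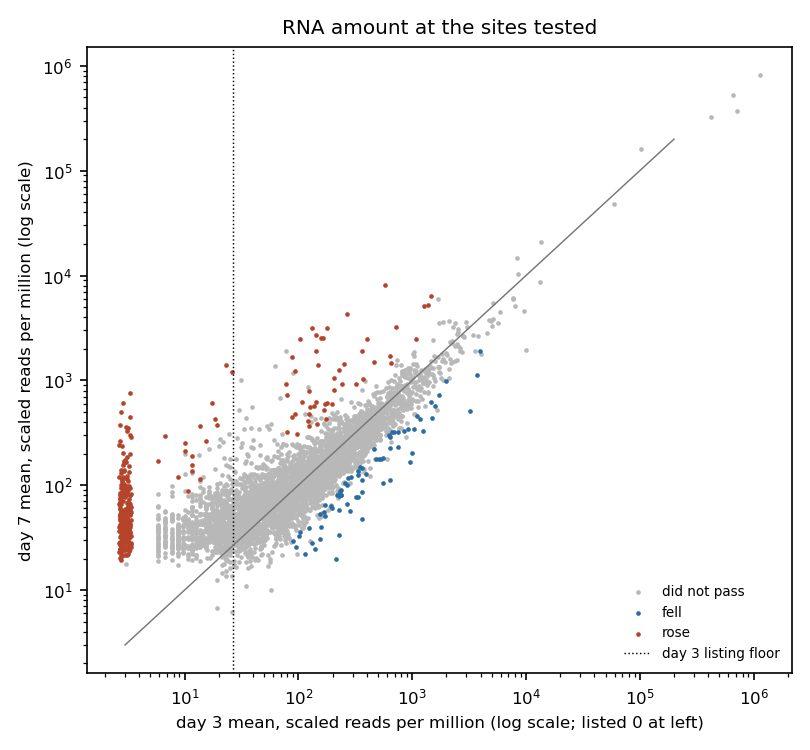
Mean CPM on day 3 (x axis) and day 7 (y axis), both on log scales, with 1 point for each of the 4455 sites tested, coloured by the limma-voom call. Of the 328 red points, 262 form the column at the left edge, where both day 3 libraries were listed at 0, and the dotted line marks the mean day 3 listing floor of 26.4 CPM.

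Each gene is represented next by its called site with the lowest adjusted p, among sites whose days did not overlap. The 15 genes whose represented site rose most and the 10 whose site fell most are given. Other sites of a gene can therefore show a larger fold. Among the 15 are structural proteins of epithelium and cytoskeleton, and noncoding RNAs. The largest fold among them was at the Xist site listed above, at 0 in both day 3 libraries and at least 28.9-fold higher on day 7. Its values are given with Xist below. Krt18 and Krt8 encode the keratin pair of simple epithelia. The Krt18 site was listed at 0 in both day 3 libraries and reached 725 and 498 CPM on day 7. The Krt8 site was also at 0 on day 3 and reached 468 and 520. Both day 7 libraries thus lay far above both day 3 libraries at each gene. Krt18 was at least 23.1-fold and Krt8 at least 18.7-fold higher (limma-voom adjusted p = 0.00339 for each). Krt19, another keratin of simple epithelia, went from 0 in both libraries to 216 and 271, at least 9.21-fold (limma-voom adjusted p = 0.00426). Dbn1, the actin-binding protein drebrin, went from 0 to 356 and 397, at least 14.3-fold (limma-voom adjusted p = 0.00339). Amot encodes angiomotin, a junctional scaffold that binds YAP, and all 6 of its sites rose. Its leading site went from 0 in both libraries to 396 and 323, at least 13.6-fold (limma-voom adjusted p = 0.00426). The remaining sites of this kind were in Pkdcc, a secreted kinase gene (at least 13.3-fold), Ahnak, a giant scaffold protein gene (at least 12.5-fold), Junb, an AP-1 factor (at least 11-fold), Cald1, caldesmon (at least 9.05-fold), and Dpysl2, a regulator of axon growth (at least 7.61-fold). All 5 were listed at 0 in both day 3 libraries.

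H19, Tpm1, Fgf8 and Ccn1 complete the 15, and each had reads listed on day 3. H19 is an imprinted noncoding RNA of embryonic tissues. Its site listed above held 215 and 144 CPM on day 3 and 4325 and 2045 on day 7. The days did not overlap, although the first day 7 library was well above the second. The day 7 mean was 17.7-fold higher (limma-voom adjusted p = 0.00568). Tpm1 encodes a tropomyosin that stabilises actin filaments. It held 149 and 147 on day 3 and 1515 and 1299 on day 7, a 9.49-fold rise (limma-voom adjusted p = 0.00426). Fgf8 encodes a fibroblast growth factor of gastrulation. Its site rose from 48.5 and 110 to 586 and 877, at least 7.89-fold (limma-voom adjusted p = 0.0106). One site of Ccn1, a matrix-associated YAP target, rose from 13.6 and 0 to 305 and 279, at least 10.3-fold (limma-voom adjusted p = 0.008). With each listed 0 at the floor all 15 rises and 10 falls kept their calls. Where both day 3 libraries were listed at 0, that setting gives them equal reads, and the limma-voom adjusted p of Krt8 became 0.000385. Keeping a call there is therefore no test of the spread on day 3. After thinning to equal depth, 20 of the 24 of these that could be tested did not pass.

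**Figure D2:**
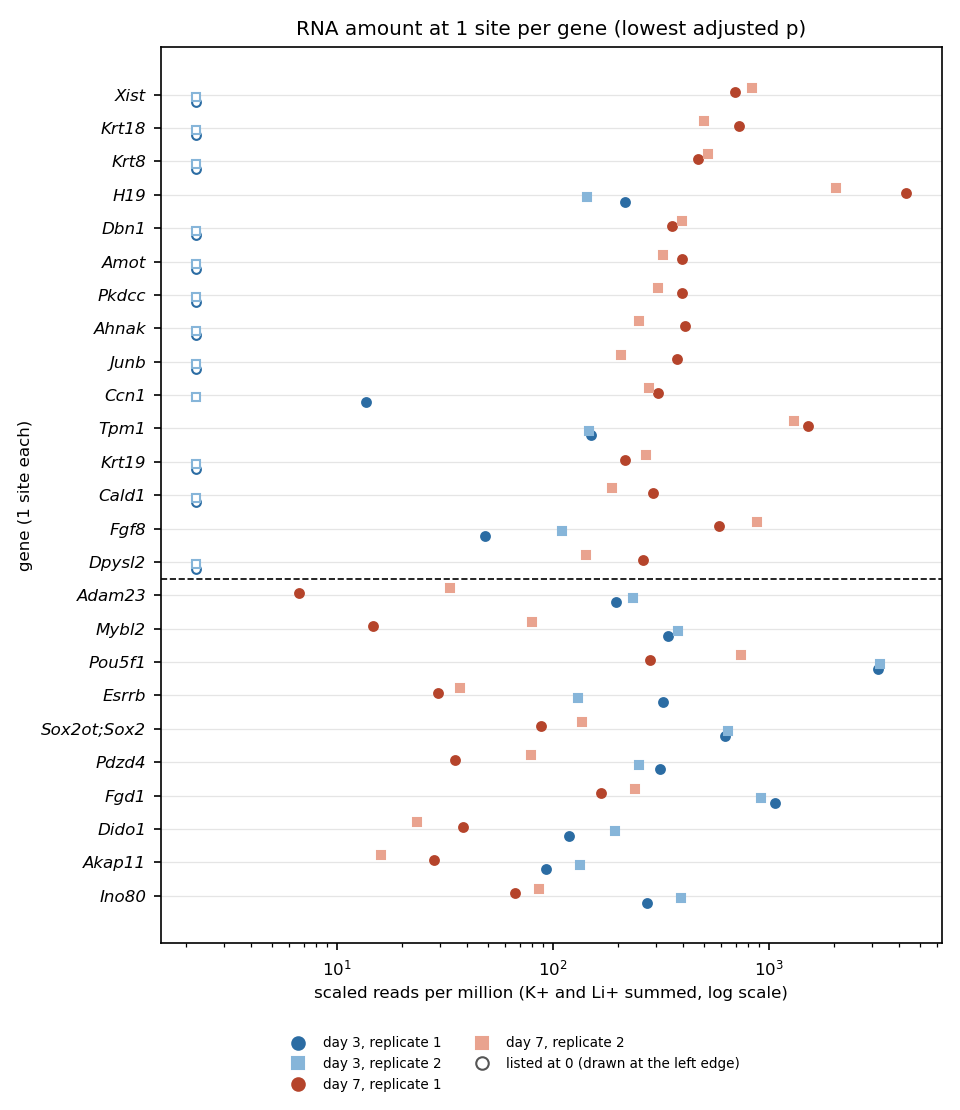
CPM (log scale) in each of the 4 libraries at the 1 site per gene with the lowest adjusted p, for the 15 genes whose site rose most, above the dashed line, and the 10 whose site fell most, below it. Open symbols at the left edge stand for a listed 0. Day 3 values (blue) and day 7 values (red) do not overlap at any of the 25 sites, as the rule that picked them required. At 11 of the rises both day 3 libraries were listed at 0.

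Some pluripotency factors fell. Of 43 genes in the list, 18 were tested at their lead site (the site with most reads), and 5 fell while 0 rose. The list's median log2 change was -1.03, against 0.16 over the 2160 lead sites, of which 7.27% rose and 2.08% fell. Pou5f1 encodes OCT4, the core factor of the pluripotent state. Its site held 3192 and 3254 CPM on day 3 and 280 and 738 on day 7. The 2 day 3 libraries were close together and both far above day 7, a 6.33-fold fall (limma-voom adjusted p = 0.00661). Sox2, which acts with OCT4, held 1269 and 1231 at its lead site on day 3 and 268 and 390 on day 7, a 3.80-fold fall (limma-voom adjusted p = 0.00837). Reads there are shared with Sox2ot, which overlaps it, and cannot be divided between the 2 genes. The Sox2 site listed above fell 5.64-fold (limma-voom adjusted p = 0.00568). Mybl2, a MYB family regulator of the cell cycle in stem cells, went from 342 and 378 to 14.7 and 79.9, a 7.60-fold fall (limma-voom adjusted p = 0.0056). Esrrb, a nuclear receptor of naive pluripotency, went from 322 and 130 to 29.4 and 36.9, a fall of at least 6.24-fold (limma-voom adjusted p = 0.0136). Zfp57, a zinc finger protein that guards methylation at imprinted loci, fell 3.07-fold (limma-voom adjusted p = 0.0186). Lin28a, an RNA-binding repressor of let-7 maturation, was not called: it held 730 and 1010 on day 3 and 1447 and 1090 on day 7 (limma-voom adjusted p = 0.263). With listed zeros at the floor 6 of the 18 fell. After thinning, 2 of 13 did, Pou5f1 and Sox2. Without day 3 replicate 1, 3 fell and 1 rose. In these bulk samples fewer cells expressing a gene and less RNA per cell cannot be told apart.

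Outside the pluripotency list the falls among these 10 were at Adam23, a membrane protein of neurons (215 CPM on average on day 3 and 19.9 on day 7, a 10.8-fold fall), Pdzd4 (4.94-fold), Fgd1, a Cdc42 exchange factor (4.88-fold), Dido1 (at least 4.60-fold), Akap11 (at least 4.52-fold) and Ino80, the ATPase of a chromatin remodeller (4.35-fold). Pdzd4 and Fgd1 are X-linked. Every one of these sites had reads in all 4 libraries, and both day 7 values were below both day 3 values, as the naming rule required. The limma-voom adjusted p ran from 0.00597 for Fgd1 to 0.0478 for Akap11.

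Some lineage genes rose. Of 48 genes listed for primitive streak, mesoderm and endoderm, 4 were tested and all 4 rose, with a median log2 change of 3.04. Id3, an inhibitor of bHLH factors downstream of BMP, held 320 and 181 CPM on day 3 and 1575 and 1295 on day 7, at least 5.55-fold higher (limma-voom adjusted p = 0.00864). Car4, a carbonic anhydrase gene, held 171 and 318 on day 3 and 902 and 953 on day 7, at least 3.72-fold higher (limma-voom adjusted p = 0.00994). The fourth was T, the gene of brachyury, whose 5′ UTR site went from 0 in both libraries to only 22.3 and 27.1, which is not above the day 3 listing floor. With zeros at the floor 3 of the 4 rose and the median was 2.23, and after thinning 2 of the 3 still tested rose. Of 55 neural genes 15 were tested, 7 rose and 0 fell, with a median log2 change of 4.05. At 6 of these 15 lead sites both day 3 libraries were listed at 0. With the floor in place 5 rose and the median was 1.14, and after thinning none of 11 did. Sox11, a factor of neural progenitors, went from 0 in both libraries to 190 and 121, at least 5.87-fold (limma-voom adjusted p = 0.00444). Nnat, an imprinted gene of developing brain, went from 0 and 20.1 to 271 and 232, at least 8.96-fold (limma-voom adjusted p = 0.0185). Nes, the intermediate filament nestin of neural progenitors, went from 0 to 126 and 122, at least 4.68-fold (limma-voom adjusted p = 0.0121). Mdk and Basp1, the tested neural genes with the most reads, did not pass.

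Of 19 keratin and cell junction genes tested, 5 rose and 0 fell, with a median log2 change of 0.67. Beside the 3 keratins these were Dsp, the desmosomal protein desmoplakin (from 0 to 119 and 88.5 CPM, at least 3.93-fold, limma-voom adjusted p = 0.00564) and Cldn7, a tight junction claudin. Cldn7 was the one read in both day 3 libraries, at 223 and 174, and it held 666 and 520 on day 7, a 2.99-fold rise (limma-voom adjusted p = 0.0149). Cdh1, E-cadherin, was not called: it held 307 and 535 on day 3 and 747 and 475 on day 7, so the days overlapped. After thinning none of 18 genes of this list passed, and with zeros at the floor 6 of 19 rose. Of 40 focal adhesion and actin cytoskeleton genes, 8 rose and 0 fell, with a median log2 change of 1.33. Besides Tpm1, called members included Tmsb4x, thymosin beta-4, an actin monomer-binding peptide (1531 and 1378 on day 3, 7664 and 5012 on day 7, a 4.36-fold rise, limma-voom adjusted p = 0.00674) and Actn1, alpha-actinin (340 and 298, then 858 and 990, a 2.90-fold rise, limma-voom adjusted p = 0.0102). Neither day overlapped the other at these genes. This list had the most genes tested and kept the most calls in number at equal depth, where 6 of 26 rose after thinning. Some smaller lists kept a larger share. With zeros at the floor 11 of 40 rose and the median was 0.58. Without day 3 replicate 1, 13 rose.

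Of 15 matrix genes tested, 4 rose and 1 fell, with a median log2 change of 1.20. Serpinh1, the collagen chaperone HSP47, held 285 and 167 CPM on day 3 and 1413 and 1075 on day 7, a 5.50-fold rise (limma-voom adjusted p = 0.00841). Thbs1, thrombospondin 1, went from 0 to 209 and 164, at least 7.05-fold (limma-voom adjusted p = 0.00426). Ltbp4, which binds latent TGF-beta, fell 3.09-fold (limma-voom adjusted p = 0.0369). Col1a1 and Loxl2 were called as rises from 0, but both were within 1.32-fold of the floor. With zeros at the floor 3 rose and the median was 0.39. After thinning 1 of 8 rose, with a median of 0.37.

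Immediate early and YAP target genes, which respond within hours to serum, stretch and contact, had 18 members tested, of which 6 rose and 0 fell. Their median log2 change was 3.69, and all 18 estimates were above 0. The lead site of Ccn1 held 46.6 and 0 CPM on day 3 and 1336 and 1482 on day 7, at least 31.4-fold higher (limma-voom adjusted p = 0.0134). Junb had reads in all libraries at its lead site, 130 and 114 on day 3 and 389 and 433 on day 7, at least 3.16-fold higher (limma-voom adjusted p = 0.0141). Jun held 138 and 0 on day 3 and 613 and 746 on day 7 and did not pass (limma-voom adjusted p = 0.0597), while 3 of its other sites rose. Ier5, an immediate early response gene, went from 0 in both libraries to 123 and 66.4, at least 3.59-fold (limma-voom adjusted p = 0.00607). With zeros at the floor 4 of the 18 rose and the median was 1.16, and after thinning 1 of 7 did. The labels describe trypsin treatment of cells before DMS at all times, and its part in these genes was not tested.

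Of 16 imprinted genes tested, 5 rose and 0 fell, with a median log2 change of 0.50. All 15 H19 sites had estimates above 0 and 11 of them rose. At the H19 lead site the libraries held 710 and 455 CPM on day 3 and 11442 and 4706 on day 7, a 13.9-fold rise (limma-voom adjusted p = 0.00661). Peg3, a zinc finger gene expressed from the paternal allele, held 328 and 478 on day 3 and 2894 and 2093 on day 7 at its lead site, a 6.19-fold rise (limma-voom adjusted p = 0.00615). Gnas, which encodes a stimulatory G protein subunit, held 93.1 and 93.6 on day 3 and 514 and 444 on day 7, a 5.13-fold rise (limma-voom adjusted p = 0.0138). Peg10, a gene of retrotransposon origin, missed the threshold at its lead site (1989 and 1408, then 7802 and 4260, limma-voom adjusted p = 0.0574), and its other 2 sites rose. With zeros at the floor 5 imprinted genes rose, and after thinning 2 of 13.

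Xist, the RNA that coats and silences an X chromosome in female cells, was represented by 9 sites, of which 8 rose. Its lead site held 95.1 and 150 CPM on day 3 and 754 and 844 on day 7, a 6.51-fold rise (limma-voom adjusted p = 0.00579, where a missing value in day 0 replicate 1 entered the shared fit as 0). The site listed above was at 0 in both day 3 libraries and reached 698 and 831, at least 28.9-fold higher (limma-voom adjusted p = 0.00339). Of the 9, 5 were listed at 0 in both day 3 libraries and 2 had reads in both. Sites of 1 transcript share its RNA and some overlap, so they are not independent. The sources used here do not say whether counting used strand, and without it reads of Xist and of its antisense partner Tsix cannot be told apart. Malat1, a nuclear noncoding RNA of splicing speckles, had 1 of 12 sites called. Its lead site held 2280 and 2495 on day 3 and 3850 and 3259 on day 7 (limma-voom adjusted p = 0.261). Of the 7 nuclear noncoding RNAs tested, H19 and Xist rose, also with zeros at the floor and after thinning, and the list's median log2 change was 0.51.

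On the X chromosome 21 of 135 sites rose and 13 fell, 15.6% and 9.63%, against 7.11% and 1.37% of 4320 sites elsewhere. Of the rises, 8 were Xist, 6 Amot and 3 Tmsb4x. Without Xist, 126 sites in 64 genes had a median log2 change of -0.30. The 13 falls lay in 7 genes. Beside Pdzd4 (4 sites) and Fgd1 (2 sites) they included Huwe1, a ubiquitin ligase (1715 CPM on average on day 3 and 727 on day 7 at 1 of the 2 sites that fell of its 4, a 2.36-fold fall, limma-voom adjusted p = 0.0144), and Slc6a8, the creatine transporter (2 sites). These genes were picked by chromosome after their values were seen, and sites of 1 gene share their RNA.

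**Figure D3:**
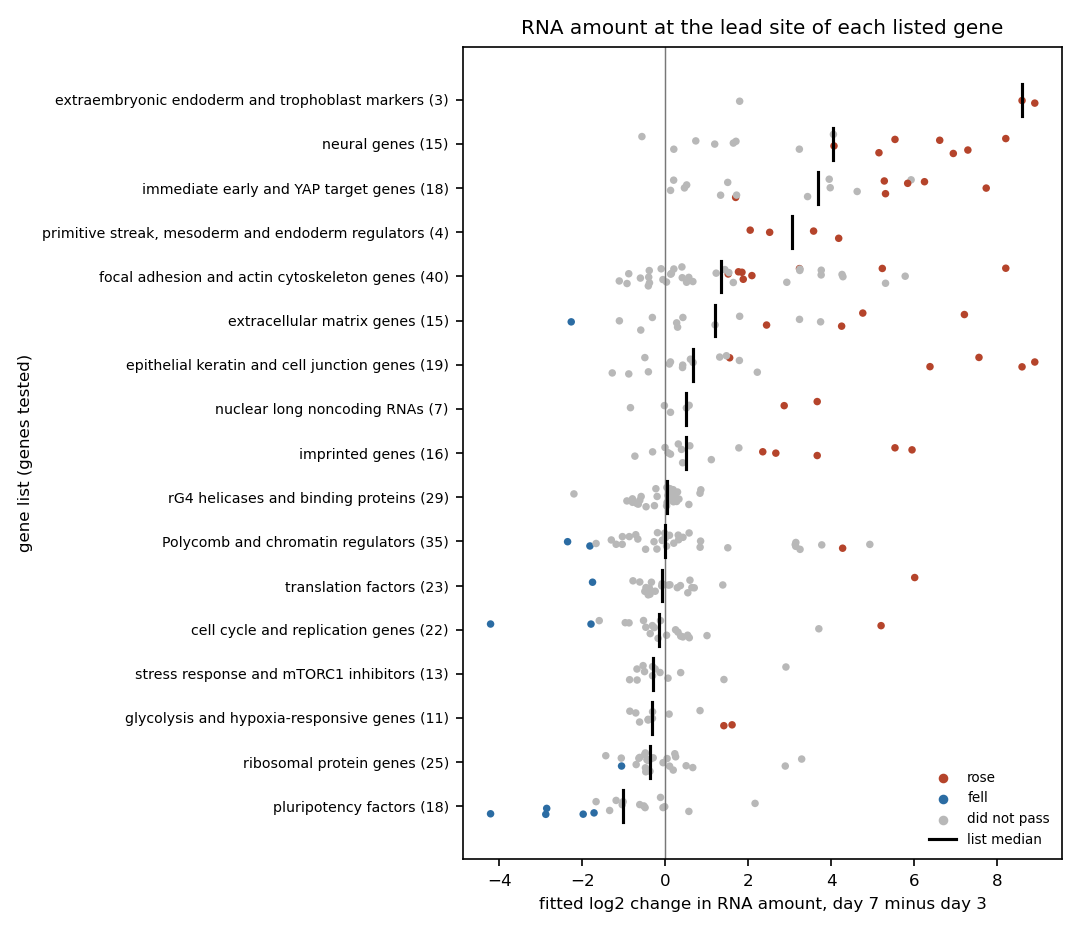
Fitted log2 change in RNA amount, day 7 minus day 3 (x axis), at the lead site of each gene in the lists with 3 or more genes tested. Points are genes, red where the site rose, blue where it fell and grey where it did not pass, and black bars are list medians, which run from -1.03 (pluripotency factors) to 8.59 (3 extraembryonic and trophoblast markers). Estimates above about 4 belong to sites listed at 0 in a day 3 library and are no measure of size.

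None of 29 genes of rG4 helicases and binding proteins was called in either direction, with a median log2 change of 0.04. Over all 2160 lead sites 7.27% rose and 2.08% fell, and counts as small as those in this paragraph do not set a list apart. Hnrnpa2b1, which binds rG4s, held 7678 and 9394 CPM on day 3 and 11954 and 8829 on day 7 (limma-voom adjusted p = 0.59), and Ncl, nucleolin, 6690 and 9380 then 5412 and 4915 (limma-voom adjusted p = 0.295). The days overlapped at Hnrnpa2b1 and not at Ncl. Of 35 Polycomb and chromatin regulators 1 rose and 2 fell, against 7 and 1 without day 3 replicate 1. The falls were Cbx7, a reader of H3K27 methylation and Polycomb subunit of stem cells (3.93-fold, limma-voom adjusted p = 0.0149) and Dnmt3a, a de novo DNA methyltransferase (3.31-fold, limma-voom adjusted p = 0.0138). Of 22 cell cycle genes 1 rose and 2 fell, the falls being Mybl2 and E2f1, the S-phase transcription factor (3.24-fold, limma-voom adjusted p = 0.0112). Of 23 translation factors 1 rose and 1 fell. The fall was Eif5a, which helps ribosomes through stalling motifs (3130 and 4327 on day 3, 892 and 1354 on day 7, a 3.32-fold fall, limma-voom adjusted p = 0.0104). Of 25 ribosomal protein genes 1 fell and 0 rose, with a median log2 change of -0.37. None of 13 genes of the stress response and mTORC1 inhibitors was called. Of 11 glycolysis and hypoxia genes 2 rose, the glucose transporter Slc2a3 (2.67-fold, limma-voom adjusted p = 0.0146) and the lactate transporter Slc16a1 (3.10-fold, limma-voom adjusted p = 0.0273).

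Markers of other cell types were thinly covered by sites. Of 25 fibroblast and feeder markers 2 were tested. Their summed level was 38.8 and 0 CPM on day 3 and 122 and 106 on day 7, and Col1a1 was listed at 0 on day 3. Of 34 extraembryonic and trophoblast markers 3 were tested, with sums of 62.1 and 93.6 on day 3 and 1428 and 1262 on day 7. Krt8 and Krt18, which simple epithelia also express, were the 2 that rose. Of 23 cardiac and smooth muscle markers 2 were tested, with sums of 83.4 and 83.6 on day 3 and 780 and 455 on day 7, of which Flnc, a filamin of muscle, held 710 and 403 on day 7. Neither lead site was called, but 2 of the 4 Flnc sites rose, by at least 1.96-fold and at least 10.8-fold (limma-voom adjusted p = 0.00578 and 0.0309). Of 23 blood and endothelial markers 2 were tested and neither was called. The part of such cells in the rises above was not tested.

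K+ stops rose at 48 of 850 sites tested (5.65%), in 33 genes, and fell at 3 (0.353%), by limma-voom on scaled stop counts. H19 supplied 9 of the 48 sites and Xist 3. Of the 48 sites, 24 also rose in RNA amount and 24 were not called in amount, though 22 of these 24 had amount estimates above 0, with a median log2 change of 2.74. Of the 3 falls, 2 fell in amount. At 37 of the 48 rises both day 3 libraries had 0 stops, and at 21 of these no K+ reads were listed on day 3. With each 0 set to 5 stops, day 7 was more than 2-fold higher at 15 of the 48 and not higher at 24. That setting is the floor of reads, and it understates the fold where K+ reads were listed on day 3. Stops below 5 were listed at such sites, so a 0 there is a count. The 24 include Kpnb1, which had 0 stops of 21 and 0 of 71 K+ reads on day 3. Only sites with K+ reads listed in every library gave 9 rises and 2 falls of 752. Thinning to equal depth left 198 sites, of which 9 rose. The count went to 0 when day 7 replicate 1 or day 7 replicate 2 was left out (106 and 146 sites at an unadjusted p under 0.05), to 29 without day 3 replicate 1 and to 7 under limma-trend.

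Each gene is again represented by its called site with the lowest adjusted p. Other called sites of a gene can have larger ratios: at 1 H19 site K+ stops went from 3 and 1 to 306 and 44, which was 18.4-fold more after scaling (limma-voom adjusted p = 0.0308). The represented Ccn1 site had 0 K+ stops in both day 3 libraries and 91 and 37 on day 7, at least 3.28-fold more after scaling (limma-voom adjusted p = 0.00201). No K+ reads of it were listed on day 3, so its K+ stop share has a value on day 7 alone, 8.50% and 5.76%. Its Li+ stop share on day 7 was 6.70% and 5.86%. The H19 site ending 3 bases from the one listed above had 0 stops in both day 3 libraries and 106 and 23 on day 7, at least 2.92-fold more (limma-voom adjusted p = 0.00389). Its K+ reads were 10 and 15 on day 3 and 1806 and 470 on day 7. Xist had 0 and 0 stops, then 67 and 22, at least 2.18-fold more (limma-voom adjusted p = 0.00389), again with no K+ reads listed on day 3. Jun, in which 4 runs of G lie within 23 bases, had 0 and 0, then 58 and 17, at least 1.80-fold more (limma-voom adjusted p = 0.00575). It too had no K+ reads listed on day 3. Both day 7 libraries exceeded both day 3 libraries, as listed, at each of these sites, as the naming rule required. Peg3, Flnc, Podxl and Krt18 went from 0 stops in both libraries to between 10 and 72, at least 1.95, 1.91, 1.42 and 1.34-fold more. Flnc, Podxl and Krt18 had no K+ reads listed on day 3, whereas Peg3 had 19 and 54.

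Slc39a7, a zinc transporter gene that overlaps Gm20427, gained stops without a call in RNA amount. On day 3, 1 of 37 and 1 of 82 K+ reads stopped there, and on day 7, 52 of 530 and 21 of 334. Its K+ stop share was 2.70% and 1.22% on day 3 and 9.81% and 6.29% on day 7, and the days did not overlap. Pooled, scaled stops were 9.30-fold higher (95% counting interval 2.48 to 78.2, limma-voom adjusted p = 0.0418), and the change in amount was 0.24 on the log2 scale (limma-voom adjusted p = 0.745). Its change in K+ stop share did not pass (limma adjusted p = 0.999). Its Li+ stop share was 4.28% and 6.25% on day 3 and 9.53% and 5.78% on day 7, so the days overlapped in Li+. The stop call was lost under limma-trend (adjusted p = 0.102) and with a replicate block (limma-voom adjusted p = 0.0882). It was also lost with stops summed per gene (0.241) and with K+ reads listed in every library (0.112). At the gene's other site tested for stops the log2 change in stops was -0.37. Arl6ip5, of the ER membrane, had 0 and 1 stops, then 37 and 15, at least 2.20-fold more after scaling (limma-voom adjusted p = 0.0237). Its K+ reads were listed at 0 in day 3 replicate 1 and at 38 in replicate 2, so the first 0 is no count of stops. The falls, with folds after scaling, were Mybl2 (7 and 10 stops, then 2 and 2, 13.5-fold), Cdh3, P-cadherin (6 and 8, then 6 and 3, 5.77-fold) and Pou5f1. The limma-voom adjusted p was 0.0184 for Mybl2 and 0.0418 for Cdh3. With no filter the Cdh3 call was lost (limma-voom adjusted p = 0.227), and its K+ stop share did not pass (limma adjusted p = 0.999). Pou5f1 stops numbered 102 and 135 on day 3, then 69 and 86, a 4.63-fold fall after scaling (limma-voom adjusted p = 0.03). Its K+ stop share was 26.6% and 22.5% on day 3 and 31.2% and 24.4% on day 7, so the share overlapped between days while reads and stops both fell. Its Li+ stop share was 25.6% and 28.1% on day 3 and 26.8% and 18.6% on day 7.

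**Figure D4:**
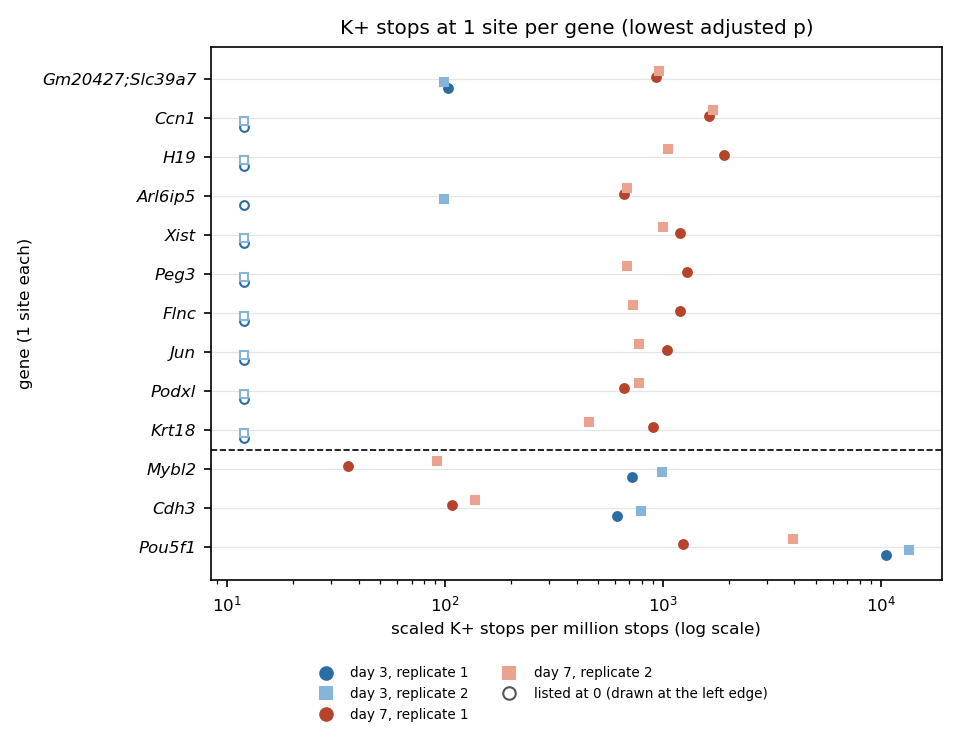
Scaled K+ stops (CPM, log scale) in each library at the 1 site per gene with the lowest adjusted p, for the 10 genes whose site rose most, above the dashed line, and the 3 sites that fell, below it. Open symbols at the left edge stand for 0 stops, also where no K+ reads were listed. Day 3 (blue) and day 7 (red) do not overlap at any of the 13, as the rule that picked them required.

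The K+ stop share itself was not called at any of 1129 sites with 20 or more K+ reads in all 4 libraries (0% called, limma on log odds with weights, 33 sites at an unadjusted p under 0.05, lowest adjusted p = 0.345). Median K+ shares were 5.41% and 3.01% on day 3 and 4.24% and 2.74% on day 7. The spread between replicates was larger than the difference between days: 4.21% ± 1.70 against 3.49% ± 1.06 (SD, n = 2), exact permutation p = 0.667, two-sided, where 2 against 2 cannot go below 0.33. The difference of -0.72 percentage points became 0.48 when day 3 replicate 1, the library that stood apart, was left out, and 0.03 when day 7 replicate 2 was. The strongest single estimate was at Kpnb1, importin beta-1. It had 0 stops of 21 and 0 of 71 K+ reads on day 3 and 29 of 224 and 10 of 109 on day 7, shares of 0%, 0%, 12.9% and 9.17% (limma adjusted p = 0.345). Its Li+ share moved too, from 3.70% and 4.17% to 11.7% and 4.82%. Psmd8, a proteasome lid subunit, had K+ shares of 7.32% and 2.00%, then 31.8% and 17.1% (limma adjusted p = 0.462). Pnck, a calmodulin-dependent kinase gene, had the opposite order, 57.1% and 74.7%, then 24.4% and 42.1% (limma adjusted p = 0.462). The days did not overlap at these 3 sites, yet none passed. A ribosomal site in CT010467.1 held 21.4% and 9.55% on day 3 and 50.2% and 25.3% on day 7 (limma adjusted p = 0.999). Setd6 and Ddit4, which with Pnck had the lowest p downward, had adjusted p = 0.999 by limma. Under the other fits the count was 0 with 3 exceptions: 5 sites without day 7 replicate 2, 1 without day 3 replicate 2, and those of the replicate block given in the closing section.

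Of 1223 sites with 20 or more Li+ reads in all libraries, 10 rose in Li+ stop share (0.818%) and 2 fell (0.164%). The median log2 odds change was 0.31, and 158 of 173 sites at an unadjusted p under 0.05 were upward. Median Li+ shares were 2.44% and 1.92% on day 3 and 3.07% and 3.23% on day 7, so the days did not overlap (2.18% ± 0.365 against 3.15% ± 0.113, SD, n = 2, exact permutation p = 0.33, the lowest these numbers allow). Pfdn2, a prefoldin subunit gene, had 0 of 343 and 1 of 95 Li+ reads stopped on day 3 and 41 of 478 and 7 of 240 on day 7, shares of 0%, 1.05%, 8.58% and 2.92% (limma adjusted p = 0.0307). Its K+ shares stayed between 3.62% and 4.92%. Rcc1, the nuclear exchange factor of Ran, had Li+ shares of 3.49% and 0%, then 19.7% and 13.2% (limma adjusted p = 0.029). Dynll2, a dynein light chain, went from 3.09% and 0% to 14.9% and 13.6% (limma adjusted p = 0.0307). Aldh2, Psmd8 and Lmnb1 were the other rises of the largest 6, with limma adjusted p from 0.0278 to 0.0437. Pnck fell, from 46.0% and 67.0% to 25.3% and 33.5% (limma adjusted p = 0.0334), in the same direction as its K+ share, and so did the mitochondrial 12S site of mt-Rnr1, from 9.39% and 11.4% to 3.70% and 4.32% (limma adjusted p = 0.0334). These calls depended on the libraries: none passed without day 3 replicate 1 (lowest adjusted p = 0.0638, 107 sites at an unadjusted p under 0.05), 62 did without day 3 replicate 2, 104 without day 7 replicate 2, and none without weights, with 50 or more reads, or with 10 or more reads.

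**Figure D5:**
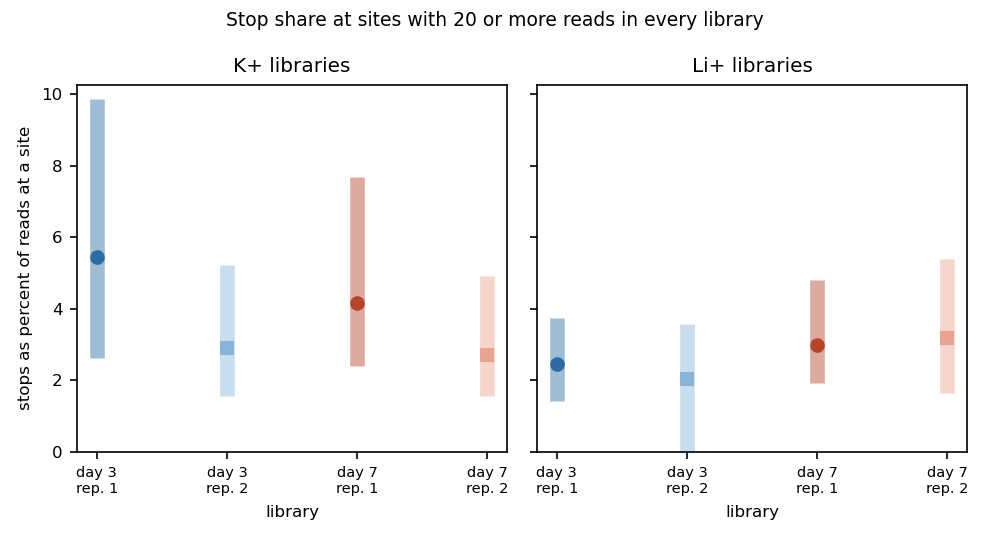
Stop share, as percent of reads at a site, in K+ (left) and Li+ (right) for the 4 libraries, over the 963 sites with 20 or more reads in both cations of every library. Points are medians and bars run from the lower to the upper quartile. K+ medians overlap between days (5.45% and 2.91%, then 4.17% and 2.71%), and both Li+ medians of day 7 (2.99% and 3.19%) lie above those of day 3 (2.44% and 2.04%).

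The change in K+ over Li+ stop odds, the reading closest to folding because sequence and damage stops occur in both cations, was not called at any of 963 sites (0% called, 89 at an unadjusted p under 0.05, 81 of them downward, lowest limma adjusted p = 0.242). Its median was -0.60 on the log2 odds scale. K+ exceeded Li+ in stop share at 74.0% and 61.2% of these sites on day 3 and at 72.4% and 44.1% on day 7, so the libraries of the 2 days overlapped. The median change became -0.02 when day 3 replicate 1 was left out and -1.03 when day 7 replicate 1 was, where 8 sites fell. Pfdn2 and Lmnb1 had the lowest adjusted p (0.242 each by limma). At both the Li+ share rose while the K+ share did not pass. Lmnb1, a lamin gene, had K+ shares of 15.3% and 3.02% on day 3 and 8.98% and 2.83% on day 7, and Li+ shares of 2.17% and 1.61%, then 8.25% and 7.38%. Akt1s1, the mTORC1 inhibitor PRAS40, had K+ shares of 38.1% and 10.7%, then 10.4% and 4.00%, from 21 and 28 reads on day 3 (limma adjusted p = 0.281). Upward, Kpnb1 and Calm3 had limma adjusted p of 0.325 and 0.502.

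By the form of the site, rises made up 9.05% of 685 canonical sites with short loops, 8.13% of 541 long-loop sites, 6.97% of 1809 bulged sites and 6.57% of 883 sites with 2 quartets, around the 7.36% of all sites. By position they made up 7.98% of 2393 sites in 3′ UTRs, 5.18% of 1043 in coding sequence, 10.2% of 403 in 5′ UTRs and 14.5% of 172 in noncoding RNA. The noncoding sites include the 11 of H19 and 8 of Xist. Median log2 changes ran from 0.14 in 3′ UTRs to 0.94 in 5′ UTRs. These shares are descriptions over sites that share transcripts, and no test was made of them.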

How the data were processed

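Members and gene lists were chosen with earlier results of these data known. The authors deposited, per in-cell library, a table of sites with whole-number reads (coverage) and reverse transcription stops in K+ and Li+. The file headers give no normalization. The submitters' processing notes name STAR, cutadapt and SAMtools and the builds GRCm38.p6 and mm10. Counting parameters, strand and the handling of duplicates: not given in the sources used here. Each deposited value is a count of reads, summed here without change. The in vitro libraries were not used, and day 0 entered only the shared fit.

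Ribosomal (CT010467.1, Gm15564) and mitochondrial sites (9 in all) made up 65.0 to 77.4% of the reads listed in these 4 libraries and were left out of the scaling. The 2 Xist sites without a value in day 0 replicate 1 were taken as 0. Library sizes were scaled with a trimmed mean of M values written for this purpose. Reads and K+ stops were fitted with limma 3.58.1 (voom) under R 4.3.3, with 1 mean per day over the 6 in-cell libraries of days 0, 3 and 7, without a replicate block. Stop sites needed 10 or more stops in 2 libraries, or 15 over the 4 with 5 or more in 2. Stop shares were fitted as log odds (pseudocount 0.5), with limma on the 4 libraries, weighted by beta-binomial variance. P-values were adjusted by Benjamini-Hochberg over all sites, with a threshold of 0.05. Scripts were tested on simulated counts. Intervals and floors cover counting error only. edgeR and DESeq2 were not used, because the layout of the tables, with each record on 2 lines, kept their unit from being checked as counts.

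Named sites were, for amount, the 15 largest rises and 10 largest falls by fold among called sites whose days did not overlap, after taking for each gene the site with the lowest adjusted p, with listed zeros at the floor. For K+ stops they were 10 and 8, of which 3 falls existed. For shares they were 6 per direction, or the 3 lowest p. From each list they were 2 to 4 called members, or the 2 with most reads. Other genes named were chosen after their values were seen. Replicate numbers did not pair libraries across days (correlations of same-numbered deviations from -0.03 to 0.05). Site positions were derived from the stop positions and motifs in the tables, and 118 of 119 sites found in RefSeq promoters (GRCm38.p6) lay at the derived position. Alternatives with listed zeros at the floor, with libraries thinned to equal depth, and with sites listed in every library were chosen after seeing the data. Results for some named genes are not reported here.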

Additional observations from a re-analysis of the deposited data

How the results depend on the processing

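Called RNA amounts were 400 sites in the fit reported. They were 655 with no filter, 203 with 50 or more reads, 0 under limma-trend, 200 with 1 site per gene and 791 with K+ reads alone (775 rises and 16 falls). With choices made after seeing the data, they were 32 at equal depth and 66 at sites with reads listed in every library and cation (41 rises and 25 falls). Leaving out 1 library gave 0 to 925 calls, the 0 without day 3 replicate 2 and the 925 without day 3 replicate 1. Scaling by median-of-ratios, by listed totals or with ribosomal and mitochondrial sites kept gave 393 to 409 calls. Zeros at the floor moved the split from 328 rises and 72 falls to 175 and 118, and the days fitted alone to 358 and 135. For K+ stops, 51 calls became 79 with no filter, 18 with 20 or more stops, 7 under limma-trend, 11 with K+ reads listed in every library and 9 at equal depth, and leaving out 1 library gave 0 to 46. Numbers did not pair libraries. With the replicate block, calls were 341 for amount, 19 for K+ stops, 4 for K+ share, 127 for Li+ share and 24 for K+ over Li+ odds. K+ share gave 0 to 5 calls when 1 library was left out, and K+ over Li+ odds 0 to 8. Li+ share, 12 calls, gave 6 with pseudocount 1, 0 with 50 or more reads, 0 with 10 or more, 3 with all 6 libraries and 0 without weights, and 0 to 104 without 1 library. The difference in median K+ share was -0.72, -2.27 for summed stops over summed coverage, and -1.92 to 0.48 without 1 library. No named site changed direction after being called, and changes of direction were not counted at named sites without a call. Of 791 comparisons for named sites, 190 lost a call, 14 gained one in the same direction and the other 587 did neither. The cause was not tested, except that stricter filters, single sites per gene and thinning leave fewer sites or reads to test. Depth limits day 3 most, since a listed 0 there allows up to 19.4 and 33.4 CPM, against 4.46 and 12.3 on day 7.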
